A study of Mus musculus with 16 samples.

Results

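Ribosomal proteins are the protein components of the cytosolic ribosome, and the 83 mouse genes that encode them and their close paralogs are described here by the OCT4 peaks that lay around them. Members were all protein-coding GENCODE M21 genes named Rpl or Rps with a number, together with Rpsa, Rplp0, Rplp1 and Rplp2. They made up 83 of the 21938 protein-coding genes of the annotation, with 46 large-subunit genes, 31 small-subunit genes and 6 paralogs (Rpl3l, Rpl7l1, Rpl10l, Rpl22l1, Rpl39l and Rps27l). A peak was assigned to a member when its midpoint lay within 10 kb of any annotated transcript start of the gene, which gave 67 of the 26704 peaks on the list.

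The peaks came from chromatin immunoprecipitation with an antibody against OCT4, followed by sequencing (ChIP-seq), in the mouse embryonic stem (ES) cell line 2TS22C. In this line a Tet-Off promoter drives the Sox2 transgene, so that doxycycline (1 µg/ml, 26 h) gives the SOX2 OFF state and untreated cells are SOX2 ON, with 2 OCT4 libraries in each state. The other 12 of the 16 libraries of the series, in 6 groups of 2, profiled BRG1 or H3K27ac in 2TS22C cells or H3K27ac in ZHBTc4 cells, where doxycycline (24 h) turns off OCT4 instead, and were not analysed here. All cells grew in serum with LIF, CHIR99021 and PD184352, and were fixed with disuccinimidyl glutarate and formaldehyde. The list is 1 merged set of coordinates, so it carries no peak height, depth or replicate, SOX2 ON and OFF cannot be told apart in it, and no test between samples was possible. Shares are therefore given with 95% Wilson intervals, which cover counting error only, beside the same share over other genes or peaks. The list held 8 peaks within 50 kb of a start of Pou5f1, which encodes OCT4, 6 near Sox2 and 5 near Nanog, all 3 being known targets of OCT4 in ES cells. Among protein-coding genes outside the family, 72.1% had at least 1 peak within 50 kb, and the number of peaks per gene at this distance was not counted for them. The list holds no expression values, so the cell type label could not be checked against marker genes.

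Ribosomal protein genes are housekeeping genes that every growing cell transcribes at a high rate. Their transcripts typically begin with a cytosine and a run of pyrimidines, the terminal oligopyrimidine (TOP) tract, through which mTOR signalling controls their translation. Many of them carry small nucleolar RNA (snoRNA) genes in their introns, and the snoRNAs released from the spliced introns guide the chemical modification of ribosomal RNA. OCT4, a POU-family factor that maintains pluripotency, recognises the octamer ATGCAAAT, often next to a site for SOX2 in a composite OCT4::SOX2 motif.

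The sequences below show the starts and peaks to which the results refer, all from GRCm38, 5′ to 3′ on the strand named. The first set shows the annotated principal starts of 5 members with a TOP-like start, with the pyrimidine run in capitals. A TOP-like start was a C followed by at least 4 pyrimidines, beginning within 5 bases of the annotated start, which is the middle base of each window.
Rpl37a (chr1:72711275-72711305, + strand): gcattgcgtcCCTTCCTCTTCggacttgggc
Rps12 (chr10:23787260-23787290, - strand): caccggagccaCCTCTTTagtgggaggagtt
Rps2 (chr17:24720095-24720125, + strand): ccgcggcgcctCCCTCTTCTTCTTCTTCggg
Rps24 (chr14:24490703-24490733, + strand): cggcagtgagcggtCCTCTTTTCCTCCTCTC
Rpsa (chr9:120127674-120127704, + strand): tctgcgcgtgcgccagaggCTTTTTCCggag

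The second set shows the whole OCT4 peak of Rps3, on the strand of the gene, because this narrow peak covered the principal start of a small-subunit gene. Capitals mark the first 7 bases of the octamer (ATGCAAA), the SP/KLF site GGGCGG and the YY1 site AAGATGG, on either strand. The annotated start is base 46 of the peak.
Rps3 (chr7:99483545-99483783, - strand): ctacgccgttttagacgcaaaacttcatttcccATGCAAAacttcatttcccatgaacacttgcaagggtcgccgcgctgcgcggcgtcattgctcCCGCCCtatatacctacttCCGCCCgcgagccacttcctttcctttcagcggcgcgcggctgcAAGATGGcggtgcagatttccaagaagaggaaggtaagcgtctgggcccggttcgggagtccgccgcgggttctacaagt

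The third set shows snoRNA genes that lay inside wide peaks of their host genes, in capitals with 10 bases of the surrounding intron or exon on each side. Snord14a is a box C/D snoRNA, the class that guides ribose methylation, and Snora70 and Snora3 are box H/ACA snoRNAs, the class that guides pseudouridylation.
Snord14a in Rps13 (chr7:116333171-116333257 without the flanks, - strand): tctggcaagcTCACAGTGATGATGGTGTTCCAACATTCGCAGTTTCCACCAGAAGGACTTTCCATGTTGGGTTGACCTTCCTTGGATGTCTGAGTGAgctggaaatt
Snora70 in Rpl10 (chrX:74272484-74272620 without the flanks, + strand): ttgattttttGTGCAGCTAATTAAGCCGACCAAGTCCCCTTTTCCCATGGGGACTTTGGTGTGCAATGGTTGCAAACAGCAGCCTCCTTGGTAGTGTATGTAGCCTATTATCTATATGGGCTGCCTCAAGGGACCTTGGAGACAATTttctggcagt
Snora3 in Rpl27a (chr7:109520120-109520251 without the flanks, + strand): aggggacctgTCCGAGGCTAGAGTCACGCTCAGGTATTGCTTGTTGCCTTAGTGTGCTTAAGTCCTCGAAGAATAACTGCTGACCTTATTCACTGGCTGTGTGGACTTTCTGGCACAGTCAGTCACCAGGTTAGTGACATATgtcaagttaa

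OCT4 peaks lay close to more of the ribosomal protein genes than of the other protein-coding genes. Of the 83 members, 52 (62.7%, interval 51.9 to 72.3%) had a peak within 10 kb, against 38.4% of the 21855 other protein-coding genes. Within 1 kb of a start, which is called promoter-proximal below, 29 members (34.9%, interval 25.6 to 45.7%) had a peak, against 16.5% of the others. Between 1 and 10 kb, called distal, 33 members (39.8%, interval 29.9 to 50.5%) had a peak, against 28.3%. The median distance from a member to its nearest peak was 3.74 kb, and that of the other genes was 18.6 kb.

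**Figure D1:**
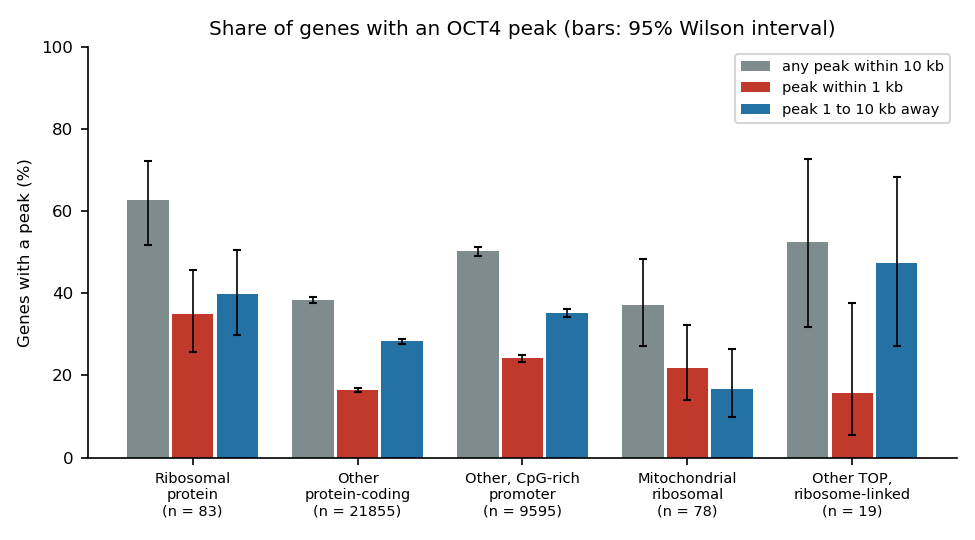
Share of genes (%, vertical axis) with an OCT4 peak within 10 kb (grey), within 1 kb (red) or 1 to 10 kb away (blue) of an annotated start, for 5 groups of genes with their n, with error bars for the 95% Wilson interval. The ribosomal protein genes stood at 62.7, 34.9 and 39.8%, and the other protein-coding genes at 38.4, 16.5 and 28.3%.

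Ribosomal protein genes differed from the other genes in promoter type and in the number of annotated starts, and the part of either in these shares was not tested. A promoter window of 300 bases, 250 before and 50 after the principal start, was CpG-rich (at least 50% GC and an observed over expected CpG ratio of at least 0.6) in 65 of the 83 members (78.3%) and in 43.9% of the other genes. Members had a median of 6 annotated starts, and the other genes 3. Among the 9595 other genes with a CpG-rich promoter, which had a median of 5 starts, 50.2% had a peak within 10 kb, 24.2% a promoter-proximal peak and 35.3% a distal one. The intervals of the members lay above the first and the second of these shares, while the third lay within the members' interval. For the second the margin was narrow, with a lower limit of 25.6%. Without the paralogs, 25 of 77 members (32.5%) had a promoter-proximal peak. The intervals of the large-subunit genes (20.9 to 47.0%) and of the small-subunit genes (18.6 to 49.9%), with fewer genes each, included the second share. Counted per length of DNA, the windows within 1 kb of a member's start held 32 peaks in 0.288 Mb, or 111 peaks per Mb, against 37.3 around all other genes and 46.0 around those with a CpG-rich promoter. The windows from 1 to 10 kb held 23.0 peaks per Mb around members, against 13.1 and 15.3.

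**Figure D2:**
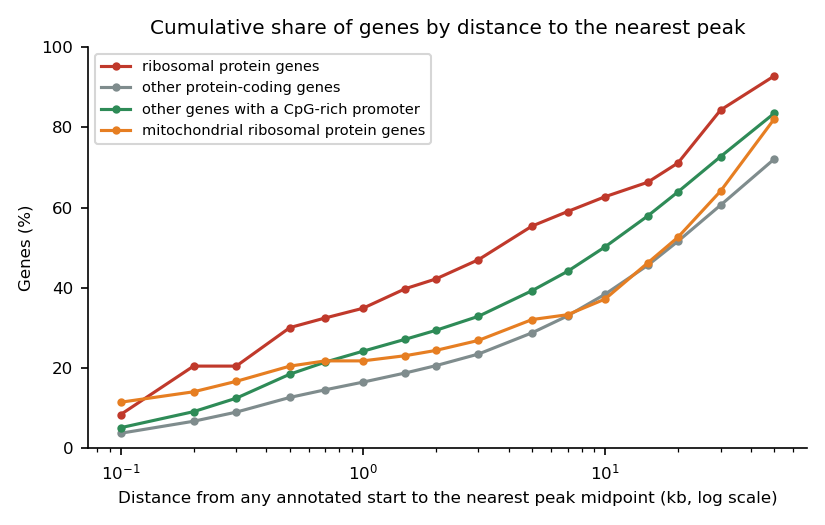
Cumulative share of genes (%, vertical axis) whose nearest peak midpoint lay within a given distance (kb, log scale) of any annotated start, for ribosomal protein genes, other protein-coding genes, the CpG-rich subset of these and mitochondrial ribosomal protein genes. At 0.2 kb the curves stood at 20.5, 6.76, 9.15 and 14.1%, and at 50 kb at 92.8, 72.1, 83.5 and 82.1%.

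Other genes of the translation machinery were counted in the same way. Of the 78 mitochondrial ribosomal protein genes, whose products build the separate ribosome of mitochondria, 29 (37.2%, interval 27.3 to 48.3%) had a peak within 10 kb, which is close to the background of 38.4%. A promoter-proximal peak was present at 17 of them (21.8%, interval 14.1 to 32.2%), against 16.5% of other protein-coding genes. A distal peak was present at 13 (16.7%, interval 10.0 to 26.5%), an interval below the background of 28.3%. Their promoters were CpG-rich in 74.4% of cases, with a median of 4 starts. Beside other genes with a CpG-rich promoter, their intervals lay below the shares within 10 kb (50.2%) and distal (35.3%). The promoter-proximal interval included the share of those genes (24.2%). A list of 19 other genes with TOP transcripts or a role at the ribosome, such as the elongation factors Eef1a1 and Eef2, the nucleolar chaperone Npm1 and the poly(A)-binding protein Pabpc1, had 10 genes (52.6%, interval 31.7 to 72.7%) with a peak. Only 3 of these 19 (15.8%) had a promoter-proximal peak, and 9 (47.4%) had a distal peak. The interval of the 3 promoter-proximal genes, 5.52 to 37.6%, included both the share of the members and the background, so a difference was not detectable with 19 genes.

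Within the family, the intervals of the 2 subunits overlapped in every class of peak. Of the 46 large-subunit genes, 28 (60.9%) had a peak within 10 kb, 15 (32.6%) a promoter-proximal one and 20 (43.5%) a distal one. Of the 31 small-subunit genes, 19 (61.3%), 10 (32.3%) and 11 (35.5%) had one. The distal shares were the farthest apart, with intervals of 30.2 to 57.8% and 21.1 to 53.1%. The paralogs stood higher for promoter-proximal peaks, with 4 of 6 (66.7%), but the interval of 30.0 to 90.3% included the shares of both subunits. Rpl22l1, a paralog of Rpl22, had a peak 17 bp from a start and the Rpl22 gene itself had its nearest at 22.9 kb. Of the other paralogs with a promoter-proximal peak, the one of Rpl10l lay at 97 bp, that of Rps27l at 116 bp and that of Rpl7l1 at 391 bp. Rpl3l, the paralog used in striated muscle, was assigned only the distal peak that it shared with Rps2, 6561 bp from its own start, and Rpl39l, a paralog used in testis, had its nearest peak at 17.2 kb.

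The members without a peak included all 3 genes of the ribosomal stalk, Rplp0, Rplp1 and Rplp2, whose products recruit the elongation factors. The nearest peak was 137772 bp from Rplp1, the longest distance of any member, 68532 bp from Rplp0 and 24434 bp from Rplp2. Rps6, the substrate of S6 kinase, had its nearest peak at 27008 bp, and Rps27a, whose product is made as a fusion with ubiquitin, at 49290 bp. Rpl5 and Rpl11 encode proteins that enter the large subunit together and can restrain MDM2. Their nearest peaks lay at 46198 bp for Rpl5 and at 2932 bp for Rpl11. The Rpl11 distance was from an alternative start, and the principal start was 21.7 kb from that peak. In all, 31 members had no peak, 39 had 1, 10 had 2 and 3 had 3, with a mean of 0.819 peaks per member against 0.570 per other gene. Of the 21855 other genes, 13471 had no peak within 10 kb, so the lack of a peak was not particular to the members named here. The 3 members with the most peaks were Rpl27, Rpl27a and Rpl7a, and 3.74% of the other genes had 3 or more. A promoter-proximal peak alone was present at 19 members, a distal peak alone at 23, and both at 10. The member just inside the 10 kb limit was Rpl27a, with a peak at 8697 bp, and the one just outside was Rpl23a, at 10060 bp. Likewise 976 bp (Rpl27a) was just inside the 1 kb limit and 1009 bp (Rps9) just outside.

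**Figure D3:**
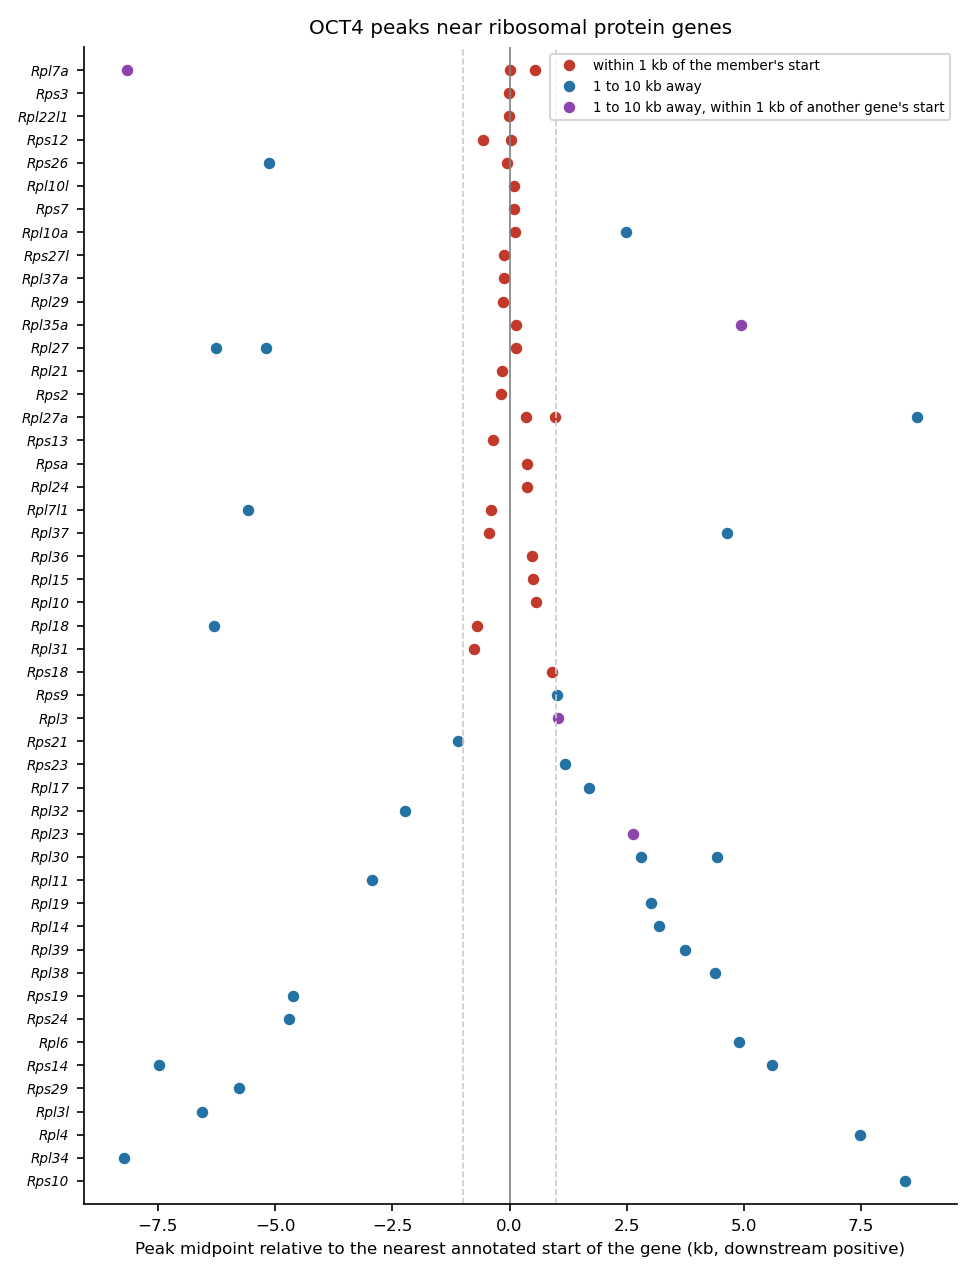
Position of each OCT4 peak midpoint (kb from the nearest annotated start of the gene, downstream positive, horizontal axis) for 49 of the 52 members with a peak, ordered by distance. Red points lie within 1 kb of a start of the member, and they are 30 peaks at 27 members. Purple points lie 1 to 10 kb away but within 1 kb of the start of a gene outside the family. Blue points are the others 1 to 10 kb away, among them the peak that Rpl3l shares with Rps2.

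The 29 members with a promoter-proximal peak included, for the large subunit, Rpl7a, Rpl10, Rpl10a, Rpl15, Rpl18, Rpl21, Rpl24, Rpl27, Rpl27a, Rpl29, Rpl31, Rpl35a, Rpl36, Rpl37 and Rpl37a. For the small subunit they included Rps2, Rps3, Rps7, Rps12, Rps13, Rps18, Rps26 and Rpsa, and for the paralogs Rpl7l1, Rpl10l, Rpl22l1 and Rps27l. Of these, Rps12, Rpl27a and Rpl7a each had 2 such peaks, which gave 32 peaks in all. Their midpoints lay at a median of 180 bp from the nearest own start, 16 upstream and 16 downstream, and 17 of them (53.1%) lay within 200 bp. For 3638 other promoter-proximal peaks the median was 274 bp and the share within 200 bp was 39.6%. At 4 of the 32, another gene also started within 1 kb (Iqcg at Rpl35a, B3galt4 at Rps18, Med22 at Rpl7a and Sphk2 at Rpl18), so that these peaks cannot be given to the ribosomal protein gene alone.

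Not all promoter-proximal peaks were at the main start of the gene. Annotated starts include those of short internal transcripts, and 11 of the 32 peaks lay more than 1 kb from the principal start, all 11 downstream of it. They included peaks of Rpl7a, Rpl10, Rpl15, Rpl21, Rpl27a, Rpl29, Rpl31, Rps2, Rps18 and Rpsa. With the principal start alone, 20 members (24.1%, interval 16.2 to 34.3%) had a peak midpoint within 1 kb, against 12.6% of the other genes and 19.6% of those with a CpG-rich promoter, and the last share lay within the members' interval. A peak covered the principal start itself at 7 members (8.43%, interval 4.15 to 16.4%), against 3.23% of the other genes. Among other genes with a CpG-rich promoter the share was 4.34%, which lies within the members' interval. By group the 7 were 2 of 46 large-subunit genes (4.35%), 2 of 31 small-subunit genes (6.45%) and 3 of 6 paralogs. Among the 7 were Rpl35a, Rpl37a, Rps3 and the paralogs Rpl10l, Rpl22l1 and Rps27l. The 7 peaks were 224 to 639 bp wide, with a median of 336 bp. The peak of Rps3, whose product lines the mRNA entry channel, had its midpoint 74 bp downstream of the principal start.

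The widest peaks of the family lay in gene bodies and overlapped snoRNA genes. Taking the widest promoter-proximal peak of each member, the 12 widest began with those of Rpl21 (1597 bp), Rps13 (1116 bp), Rps2 (1111 bp), Rpl10 (1077 bp) and Rpl7a (988 bp). The others were those of Rpl27a (713 bp), Rpl37a (639 bp), Rpsa (601 bp), Rpl15 (537 bp), Rps27l (469 bp), Rpl36 (465 bp) and Rpl22l1 (440 bp). The first 6 of these and the peak of Rpsa each overlapped at least 1 annotated snoRNA gene, and the others did not. Over 1 kb wide were 4 of the 32 promoter-proximal peaks (12.5%), against 0.577% of the other promoter-proximal peaks, although the medians were alike at 332 bp and 329 bp.

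Placed on the genome, the Rpl21 peak (chr5:146834238-146835834, + strand gene) had its midpoint in a coding exon, 2.15 kb downstream of the principal start, and held the snoRNA genes Gm23202 and Gm25091. The Rps13 peak (chr7:116332983-116334098, - strand gene) lay 0.654 kb downstream of the principal start and held Snord14a, 327 bp from the peak midpoint. The Rps2 peak (chr17:24720704-24721814, + strand gene) was centred in a coding exon 1.15 kb downstream and held Snora64, and the Rpl10 peak (chrX:74271859-74272935, + strand gene) lay 1.54 kb downstream and held Snora70. These 4 peaks lay whole inside the transcribed unit and did not reach the annotated principal start. At Rpl7a (+ strand) both peaks held a snoRNA gene, Gm23969 in the first (chr2:26911048-26912035) and Gm24134 in the second (chr2:26912442-26912916, 475 bp). Rpl27a (+ strand) had Snora3 in its wider peak (chr7:109519890-109520602). In Rpsa (+ strand), whose product is also known as the laminin receptor precursor, Snora62 lay 1 bp from the midpoint of the peak (chr9:120130188-120130788). By contrast, the widest promoter-proximal peak without a snoRNA gene, at Rpl37a (chr1:72710843-72711481, + strand), was intergenic by its midpoint and covered the principal start.

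In total, 10 of the 67 peaks of the family (14.9%) overlapped a snoRNA gene, against 0.0488% (13) of the 26637 other peaks of the list, an overlap that was examined after the wide peaks had been seen. The tenth was the distal peak of Rpl17, 1045 bp wide and 1691 bp from a start. The 10 peaks had a median width of 1016 bp and the other 57 peaks of the family 319 bp, and all 5 peaks of the family over 1 kb were among the 10. The 13 snoRNA-overlapping peaks of other genes and regions had a median width of 444 bp, and none exceeded 741 bp. The members and the other genes differed in how many host a snoRNA gene on the same strand. These were 30 of the 83 members and 249 of the 21855 other protein-coding genes, and the shares of overlapping peaks were not adjusted for this.

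Not all members with a snoRNA gene had a peak in the gene body. Of the 30 members with a snoRNA gene inside the transcribed unit on the same strand, 12 (40.0%, interval 24.6 to 57.7%) had a peak midpoint in the gene body, against 17 of the 53 members without one (32.1%, interval 21.1 to 45.5%), and these intervals overlap. The peaks differed in width: the 14 body peaks of snoRNA hosts had a median of 832 bp, with 5 over 1 kb, and the 18 of the other members a median of 315 bp, with 0 over 1 kb. Among the 249 other protein-coding genes that host a snoRNA gene, 374 body peaks had a median width of 338 bp and 1 exceeded 1 kb. Those genes are longer, with a median of 52.6 kb against 3.23 kb for the member hosts, and had 9.64 body peaks per Mb against 116, while the members without a snoRNA gene had 71.9. A body peak was present at 129 of the 249 other hosts (51.8%, interval 45.6 to 57.9%) and at 29.1% of the other genes without a snoRNA gene, whose median length was 17.3 kb. Since the bodies of members are short, most of their length is near a start. Part of the sequence of these peaks occurs elsewhere in the genome. The 10 snoRNA-overlapping peaks had 14.6 to 40.4% of their 31-base words at more than 1 genomic place, and the 32 body peaks of the family a median of 14.7%, against 0% for the 35 outside. None of the 32 promoter-proximal peaks passed 50%, against 1.73% of the other promoter-proximal peaks. The part of repeated sequence or of snoRNA genes in these widths was not tested.

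**Figure D4:**
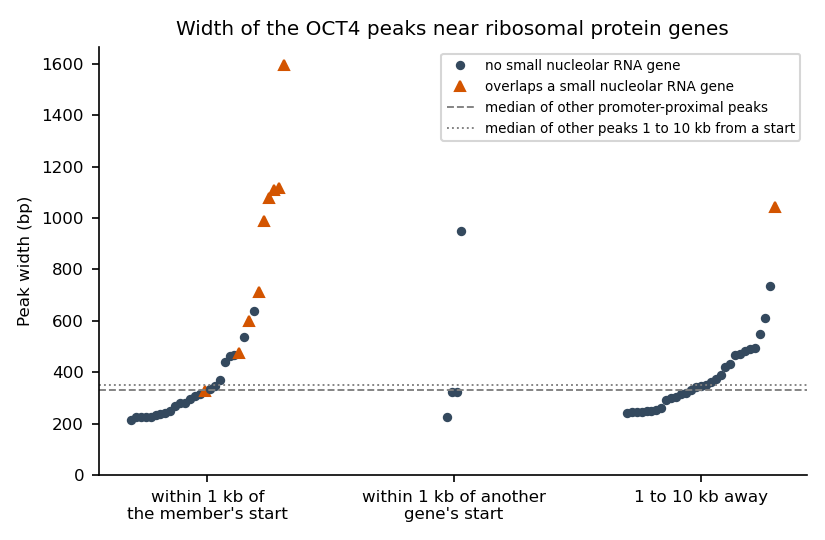
Width (bp, vertical axis) of each of the 67 peaks, ordered by width within 3 classes of position, with orange triangles for peaks that overlap a snoRNA gene and dark points for the others. Dashed and dotted lines give the medians of other promoter-proximal peaks (329 bp) and of other peaks 1 to 10 kb from a start (350 bp), and all 5 peaks over 1000 bp are triangles.

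The 35 peaks away from the members' own promoters resembled other distal peaks in width, with a median of 344 bp against 350 bp. They lay downstream of the nearest own start in 21 cases and upstream in 14. At 4 of them another gene started within 1 kb (1700001P01Rik near Rpl23, Syngr1 near Rpl3, Lmln near Rpl35a and Surf6 near Rpl7a), which left 31 distal peaks. For 11 of the 35 the nearest protein-coding start was that of another gene. Among the nearest to a member were those of Rps9 (1009 bp), Rpl3 (1038 bp), Rps21 (1098 bp) and Rps23 (1181 bp), of which the Rpl3 peak was the one at Syngr1. Of the 31 distal peaks, those of Rps21 and Rpl7l1 had more than 50% of their 31-base words at more than 1 genomic place (50.5% and 53.0%), or 6.45% of the class, against 5.24% of other peaks at this distance. Rps2 and Rpl3l, neighbours on chromosome 17, were the only pair of members that shared a peak.

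OCT4 and SOX2 motifs were rare in the promoter-proximal peaks and about as frequent as in the background in the distal ones. The composite motif was taken as the SOX part CATTGTT directly followed by the octamer ATGCAAAT, on either strand, with at most 3 mismatches over 15 bases. In the promoter-proximal peaks it matched in 1 of 32 (3.12%, interval 0.554 to 15.7%), against 6.27% of other promoter-proximal peaks. The octamer alone, without mismatch, was found in 0 of 32 (Wilson upper limit 10.7%, and 9.38% by the limit of 3 counts), against 8.49%, and the SOX core (CCATTGT or CCTTTGT) in 2 (6.25%, interval 1.73 to 20.1%), against 17.7%. Any of the 3 was present in 3 peaks (9.38%, interval 3.24 to 24.2%), against 27.3%. For each motif alone the background share lay within the interval, and only for any of the 3 did it lie above. Outside the own promoters the composite motif matched in 6 of 35 peaks (17.1%, interval 8.10 to 32.7%), against 11.4% of other peaks 1 to 10 kb from a start. There the octamer was in 3 (8.57%, interval 2.96 to 22.4%), against 10.6%, and the SOX core in 10 (28.6%, interval 16.3 to 45.1%), against 29.6%. Any of them was present in 15 of the 35 (42.9%), and 42.9% was also the share among the other peaks at this distance. Without the 4 peaks near another gene's start, the 31 distal peaks held the composite motif in 19.4% (interval 9.19 to 36.3%), the octamer in 9.68%, the SOX core in 32.3% and any of them in 48.4% (interval 32.0 to 65.2%).

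The shorter word ATGCAAA, which the octamer contains and which was looked for after the sequences of narrow peaks at principal starts had been read, was in 3 of the 32 promoter-proximal peaks (9.38%, interval 3.24 to 24.2%), among them those of Rps3 and Rpl24. It was in 17.4% of other promoter-proximal peaks, which lies within that interval. Outside the own promoters it was in 10 of 35 (28.6%), against 20.7% of other peaks at 1 to 10 kb.

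Of the 7 composite matches, 5 are given with 10 bases on each side and the match in capitals, on the strand of the motif, to show how far each departs from the full motif. Each of the 7 had exactly 3 mismatches, and none of the 67 peaks had 2 or fewer, which allows a share of up to 4.48% by the limit of 3 counts, against 1.78% of other peaks within 10 kb of a start.
Rpl30, 42 bp from the peak midpoint (chr15:34437259-34437293, - strand): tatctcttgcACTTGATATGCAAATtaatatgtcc
Rps29, 53 bp from the peak midpoint (chr12:69164882-69164916, + strand): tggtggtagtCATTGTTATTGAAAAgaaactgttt
Rpl6, 135 bp from the peak midpoint (chr5:121212942-121212976, + strand): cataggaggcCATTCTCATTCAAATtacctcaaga
Rpl37, 161 bp from the peak midpoint (chr15:5121756-5121790, - strand): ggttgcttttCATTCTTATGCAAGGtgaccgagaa
Rpl10, 374 bp from the peak midpoint (chrX:74272754-74272788, - strand): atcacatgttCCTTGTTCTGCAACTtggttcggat

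Counted from 1 at the 5′ end of the composite motif, the Rpl30 match differed by C1A, A2C and T6A, all in the SOX part, so that its octamer was complete. The Rps29 match had a complete SOX part and differed in the octamer by G10T, C11G and T15A. The Rpl6 match differed by G5C, T7C and G10T, the Rpl37 match by G5C, A14G and T15G, and the Rpl10 match by A2C, A8C and A14C. The Rpl10 match was the only one in a promoter-proximal peak, lay far from the middle of a 1077 bp peak, and was in the gene body. The peaks of the 4 others shown were distal, 4431 to 5766 bp from a start of the member, and intergenic by their midpoints: Rpl30 (chr15:34437062-34437405), Rps29 (chr12:69164710-69165193), Rpl6 (chr5:121212948-121213239) and Rpl37 (chr15:5121748-5122119).

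The complete octamer was present in 3 peaks of the family, all distal, at Rpl30, Rpl11 and Rpl14. The Rpl11 and Rpl14 octamers are shown in capitals with 10 bases on each side. The Rpl30 octamer is the one within its composite match above.
Rpl11, 20 bp from the peak midpoint (chr4:136031736-136031763, + strand): tgattctcatATGCAAATcaaatcaaag
Rpl14, 90 bp from the peak midpoint (chr9:120576663-120576690, + strand): ttggggttttATGCAAATgagttttgcc
The Rpl11 peak (chr4:136031556-136031904) lay in an intron, and its distance of 2932 bp was from an alternative start, since the principal start was 21.7 kb away. The Rpl14 peak (chr9:120576646-120576888) was intergenic, 3178 bp from a start of the gene.

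The promoter windows at the principal starts of the family held neither the complete octamer nor the SOX core. The shorter word ATGCAAA was not counted in these windows, and the one shown above for Rps3 lies in such a window. In the 300-base windows of the 83 members the octamer was found in 0 (Wilson upper limit 4.42%, and 3.61% by the limit of 3 counts), against 1.65% of the promoters of other genes. The SOX core was likewise in 0 of 83, against 8.09% of other promoters and 4.69% of those that were CpG-rich. An absent word says only that these letters are not in this window.

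Other promoter elements differed from the background in part. A TOP-like start was present at 24 of the 83 annotated principal starts (28.9%, interval 20.3 to 39.4%), against 18.0% of other genes and 17.4% of those with a CpG-rich promoter. At the most 5′ annotated start instead, it was present in 22 of 83 members (26.5%, interval 18.2 to 36.9%). The shares of other genes and of CpG-rich ones at that start lay within this interval, so the separation depended on the choice of start. The annotated start may lie upstream or downstream of the start used in these cells, which the peak list does not measure. The ETS site CCGGAAG was in 25 windows (30.1%, interval 21.3 to 40.7%), against 11.2% of other promoters and 19.8% of CpG-rich ones. Mitochondrial ribosomal protein genes also held it, in 37.2% of their windows. The YY1 site AAGATGG was in 10 (interval 6.68 to 20.8%), against 6.27% of other promoters and 7.06% of CpG-rich ones, which lies within the interval, and 17.9% of mitochondrial ribosomal protein genes. The SP/KLF site GGGCGG was in 41 (49.4%, interval 38.9 to 59.9%), against 45.5% of all other promoters and 77.1% of CpG-rich ones, so the family lay below the CpG-rich share. The median GC content of the windows was 55.7% for members, 56.0% for other genes and 64.7% for CpG-rich ones. The part of base composition in these shares was not tested. The TATA word TATAAA was in 9 (10.8%, interval 5.81 to 19.3%), against 12.5% and 4.53% of CpG-rich promoters. The E-box CACGTG, the site of MYC and its relatives, was in 11 (13.3%, interval 7.56 to 22.2%), against 7.75% and 11.6% of CpG-rich promoters. Both strands were searched for each word but the TOP-like start.

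**Figure D5:**
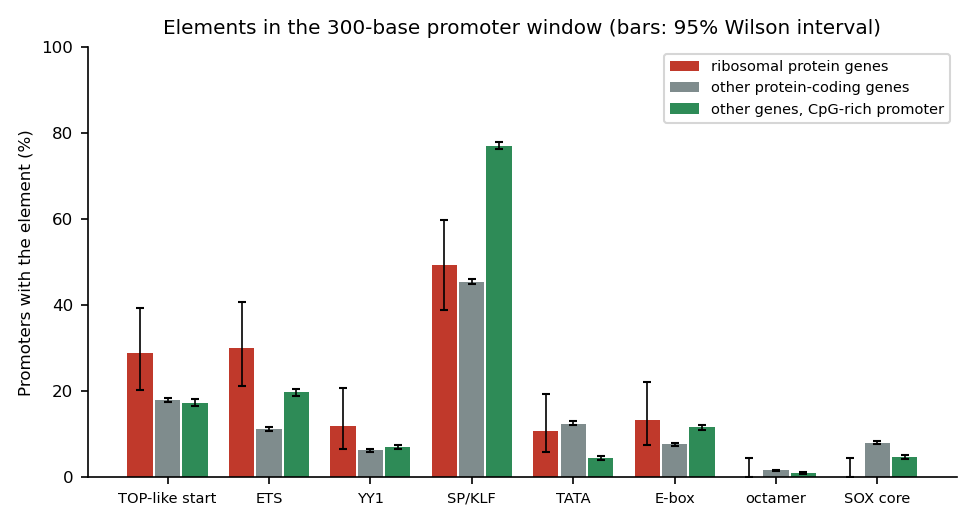
Share of promoter windows (%, vertical axis) that hold each of 8 elements, for the 83 ribosomal protein genes, other protein-coding genes and the CpG-rich subset of these, with 95% Wilson intervals. The ETS site stood at 30.1, 11.2 and 19.8%, the SP/KLF site at 49.4, 45.5 and 77.1%, and the octamer and SOX core were in none of the members' windows.

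Members with and without a promoter-proximal peak had overlapping intervals for each of these elements. The TOP-like start was at 10 of 29 members with such a peak (34.5%) and 14 of 54 without (25.9%), and the ETS site in 11 (37.9%) and 14 (25.9%). The E-box was in 1 of 29 (3.45%, interval 0.611 to 17.2%), which was Rps2, and in 10 of 54 (18.5%, interval 10.4 to 30.8%). To show the contrast, the windows of Rps2, with a peak downstream of it, and of Rplp1, the member farthest from any peak, are given with these words and the first bases of the TOP-like start in capitals. Both held a TOP-like start and an ETS site, and Rps2 also held SP/KLF, TATA and E-box words.
Rps2 (chr17:24719860-24720159, + strand): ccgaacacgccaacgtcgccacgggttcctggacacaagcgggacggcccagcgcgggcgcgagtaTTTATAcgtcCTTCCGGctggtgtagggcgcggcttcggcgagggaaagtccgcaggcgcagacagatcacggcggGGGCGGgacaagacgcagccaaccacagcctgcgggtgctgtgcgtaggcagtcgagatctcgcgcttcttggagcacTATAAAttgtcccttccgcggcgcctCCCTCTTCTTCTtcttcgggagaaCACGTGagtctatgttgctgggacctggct
Rplp1 (chr9:61914493-61914792, - strand): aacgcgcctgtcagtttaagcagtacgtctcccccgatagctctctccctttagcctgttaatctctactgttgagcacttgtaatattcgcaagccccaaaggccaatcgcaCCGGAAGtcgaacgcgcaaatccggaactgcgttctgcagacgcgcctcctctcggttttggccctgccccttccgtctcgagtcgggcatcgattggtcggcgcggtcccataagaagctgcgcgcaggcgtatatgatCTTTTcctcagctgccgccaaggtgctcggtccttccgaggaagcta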

How the data were processed

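The authors aligned ChIP-seq reads to mm10 with STAR 2.6.1c, removed duplicates with Picard, called peaks with MACS2 2.1.1.20160309 and joined overlapping peaks with bedtools. The deposited list holds only the chromosome, start and end of merged OCT4 peaks of 2TS22C cells, in base pairs. The sources do not say which libraries were merged or if replicates were pooled first. The authors discarded peaks over 5 kb or overlapping input peaks before counting reads, and whether input peaks were removed from this list is not stated (its widest peak is 38168 bp). Merging makes a width the union of overlapping peaks, and the depth is unknown.

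Coordinates (1-based) were compared with GENCODE M21 starts, and sequence was read from the RefSeq GRCm38.p6 assembly. A principal start was that of the transcript ranked first by APPRIS, CCDS, basic tag and length. Peak midpoints were used throughout. Sequence from chromosome 18 is not shown. Members and lists were chosen with earlier results of these data known. By rule the text names members with a promoter-proximal peak, with values for the 12 widest, composite matches, the 3 members with most peaks and the 5 nearest distal peaks. Single-gene results of some members are not reported here, though all 83 are in every count. Principal starts, snoRNA genes, the shorter octamer word and the printed Rps3 and snoRNA sequences were added after the values were seen. Distance, motif and interval functions were tested on simulated data. Calculations used NumPy 2.4.6 and SciPy 1.17.1 under Python 3.11.15, and matplotlib 3.10.9 drew the figures.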

Additional observations from a re-analysis of the deposited data

How the results depend on the processing

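Each share, motif count and width was recomputed under other choices of start, peak width, window, gene list or mismatches (59 values for 19 results). Of these, 33 stayed within the 95% interval of the reported share or, for widths, between the quartiles, and 26 did not. In every setting the share of members with a peak stayed above that of all other genes. With the most 5′ annotated start alone, members gave 59.0% within 10 kb, 24.1% promoter-proximal and 45.8% distal, and other genes 31.8, 12.4 and 22.5%. Starts of protein-coding transcripts gave members 60.2, 26.5 and 44.6%, and other genes 34.9, 14.8 and 24.8%. Peaks of at least 300 bp gave members 43.4, 20.5 and 27.7%, and other genes 27, 10.0 and 19.9%. Without peaks of multi-copy sequence, an alternative chosen after seeing the data, members gave 61.4, 34.9 and 37.3%, and other genes 37.2, 16.2 and 27.1%. Windows of 5 and 50 kb in place of 10 kb gave members 55.4 and 92.8%, and other genes 28.8 and 72.1%. Windows of 500 bp and 2.5 kb in place of 1 kb gave members 30.1 and 43.4%, and other genes 12.7 and 22.1%. Any overlap with the 1 kb window gave members 39.8% and other genes 17.6%. Without the paralogs, members gave 61.0, 32.5 and 40.3%, with the other genes unchanged. With CpG-rich genes as the background, its shares were 50.2, 24.2 and 35.3%. The composite motif matched 0 peaks of the family at 2 mismatches and 26.9% of them at 4. No share over other peaks is given at 4 mismatches, so the 26.9% cannot be read as particular to the family.

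No paired analysis was possible because the merged list holds no value per library. For the same reason no replicate was left out, and OCT4 binding in SOX2 OFF was not compared with SOX2 ON. A gene without a peak cannot be told from a gene with a peak below the calling threshold.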

Other observations

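Ribosomal protein genes have many processed pseudogenes, intronless copies that arose through reverse transcription of their mRNAs. Of the 294 pseudogenes named after a member, 0 overlapped an OCT4 peak, which allows a share of up to 1.02% by the limit of 3 counts, against 70 of all 9940 processed pseudogenes (0.704%). How reads with several equally good genomic places were treated before peak calling is not stated in the sources used here.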
